A study of Mus musculus with 6 samples.

Results

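The genes described here encode the proteins that copy DNA in S phase, together with the enzymes that supply its building blocks, and were chosen by name as 44 members. Each of the 44 was represented on the array by at least 1 probe set annotated with its symbol alone, out of 18193 genes so represented, and the probe set with the highest mean signal over all arrays stood for the gene. Total RNA came from NIH3T3 cells, an immortalised mouse fibroblast line, of 1 clone (clone M) with multiple insertions of lacO, the operator DNA that the lac repressor binds. In 3 samples, tethered, the insertion lay at the nuclear periphery, and in 3 samples, untethered, it was disposed centrally; both groups were the same clone, grown in DMEM with 10% FCS to about 80% confluency. The samples of each group carry the replicate numbers 1, 2 and 3, and the labels do not say what a number stands for or whether the cultures were separate, so that a p-value here covers only how much these 6 samples vary, which may be technical variation. The series asks how tethering a genomic region to the inner nuclear membrane bears on transcription.

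In G1 phase, the origin recognition complex, Cdc6 and Cdt1 load the MCM helicase onto DNA, and cyclin E and the Cdc7-Dbf4 kinase then start its firing. Polymerases, primase, the sliding clamp and its loader carry out synthesis, while ribonucleotide reductase and thymidine kinase supply deoxynucleotides. Transcription of many of these genes is under the control of E2F factors, which the retinoblastoma protein family holds in check in resting cells and which are released when fibroblasts enter the cycle in serum.

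Replication genes differed between the arrays numbered 1, 1 from each group, and the 4 arrays numbered 2 and 3, while no difference between tethered and untethered cells passed the test. Of the 42 members whose mean signal passed the filter, 30 (71.4%) were lower in the arrays numbered 1 and 0 were higher (limma, Benjamini-Hochberg adjusted p under 0.05 over all 22518 probe sets tested). Of all 11846 genes tested, counted by the same rule, 8.72% were called lower and 1.41% higher. The count of 30 became 0 without tethered replicate 1 and 0 with an unmoderated linear model, while the median stayed below 0. Nearly all calls over all genes tested were lost in both settings too, with 0% called under the unmoderated model. The median log2 difference of the 42 was -0.78, against -0.03 for all genes tested. Among the tested members, the largest differences were 5.44-fold for Rrm2, a subunit of ribonucleotide reductase, 5.21-fold for Cdc6 and 4.65-fold for Tk1, thymidine kinase, with the arrays numbered 1 the lower ones each time. By contrast, 0 of the 42 were called between tethered and untethered cells, and likewise 0% of all genes tested. The median log2 difference of these 42 was -0.05, against -0.02 for all genes tested.

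That the arrays numbered 1 stand apart was known from earlier results of these data, so the calls between numbers describe these 6 arrays. The array medians lay between 482.5 and 490.8 intensity units, and the first principal component, with 62.1% of the variance, placed the arrays numbered 1 at -38.0 and -30.3 and the other 4 between 5.49 and 26.6. RNA integrity was read from control probe sets as log2 signal at the 5′ end minus the 3′ end. For transferrin receptor it was -2.09 and -2.81 in the arrays numbered 1 and ran from -3.07 to -1.52 in the others. The same measure for Gapdh was 0.095 and 0.038, against -0.060 to 0.088 in the others, and for beta-actin -0.29 and -0.31, against -0.56 to -0.10. Both arrays numbered 1 lay within the range of the others, except 1 of them, just above it for Gapdh. The low end of each range came from untethered replicate 2 alone. Without it, the others ran from -1.67 to -1.52 for transferrin receptor and from -0.15 to -0.10 for beta-actin. Both arrays numbered 1 lay below these narrower ranges. For Gapdh the narrower range was 0.076 to 0.088, with 1 of them above it and 1 below. The part of RNA quality in the differences between numbers was not tested. Of the fibroblast markers, 14 of 14 passed the filter, and their summed intensity was 100300 in tethered replicate 1 and 121100 to 131900 in the other 5 arrays. The share that passed was 5 of 10 for macrophage, 3 of 7 for epithelial, 3 of 7 for endothelial and 5 of 7 for muscle markers, against 11846 of all 18193 genes. Their summed intensities ran from 5527 to 6362, from 7255 to 7903, from 2789 to 3133 and from 4697 to 5146, in the same order. The defining markers Ptprc, of leukocytes, and Cdh1, of epithelium, lay at mean log2 intensities of 7.01 and 6.66, below the filter at 8.93. Markers of the macrophage list above it were Cd14 (10.19), Tyrobp (10.02), Adgre1 (9.76), Lyz2 (9.67) and Csf1r (9.38). Those of the epithelial list were Epcam (11.40), Krt14 (11.27) and Cldn4 (10.20). Of these lists, Cd14 alone was called between numbers (-0.51, SE 0.069, adjusted p = 0.0141). Cdh1, below the filter, was higher in the arrays numbered 1 by 1.19, with no test. Its levels were 7.80, 5.96 and 6.25 in tethered and 7.12, 6.72 and 6.12 in untethered replicates 1, 2 and 3. No detection calls were used here. The part of these markers in the results was not tested. In whole-culture RNA, fewer cells in S phase and less RNA of these genes per cell cannot be told apart.

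**Figure D1:**
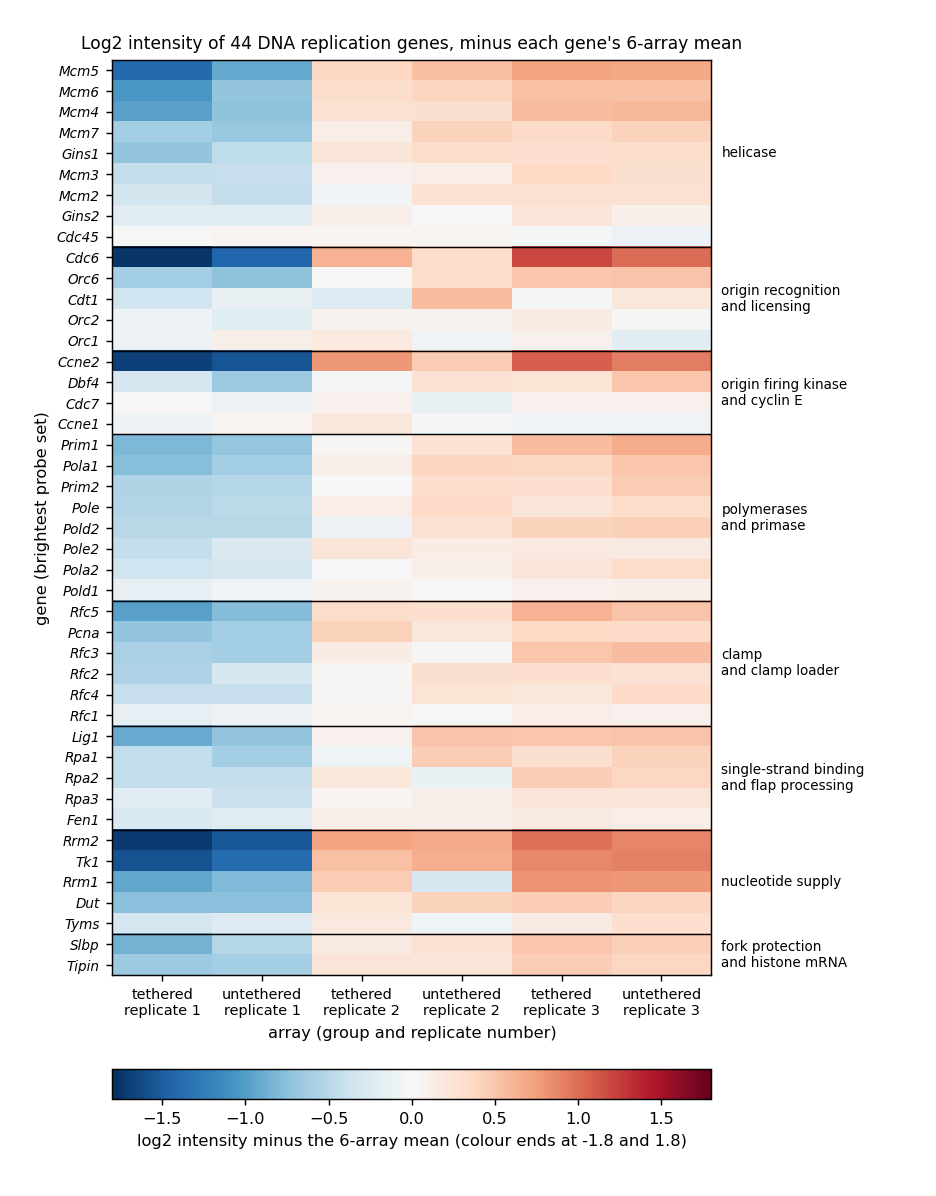
Log2 intensity of the 44 replication genes on each of the 6 arrays, minus the gene's mean over the arrays, with rows grouped by role and columns ordered by replicate number. The arrays numbered 1 are below the mean (blue) for most genes in both groups, and 39 of 44 genes have both of them below all other arrays.

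Promoter sequences are shown because E2F binding sites in the promoters of these genes are the textbook link between them. In the RefSeq promoter windows of assembly GRCm38.p6, which run from 250 bases before to 50 after a start site, 36 of the 44 members were found, with 43 windows. Each window was searched on both strands for the E2F letters TTTCCCGC or TTTGGCGC or TTTCGCGC or TTTGCCGC. At least 1 of these was found for 12 of the 36 members (33.3%), against 2.60% of the 27025 genes in the table. The CCAAT box, bound by NF-Y, was found for 58.3% of the members and 41.1% of all genes, and TTTGAA, the cell cycle homology region of mitotic genes, for 16.7% and 20.2%. For 27 mitosis genes of the comparison list below, the same shares were 3.70% for the E2F letters, 77.8% for CCAAT and 74.1% for TTTGAA. The stretches below lie wholly upstream of the start site and belong to 4 genes with an E2F match that were called lower by over 2-fold in the arrays numbered 1 and to Rrm2, which has the largest difference and no E2F match in its window. Capitals mark the E2F letters and CCAAT boxes on either strand, and overlapping E2F matches on opposite strands appear as 1 longer run in Mcm6 and Mcm5.
Mcm5: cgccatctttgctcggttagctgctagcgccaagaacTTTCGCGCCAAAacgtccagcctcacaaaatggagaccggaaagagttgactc
Mcm6: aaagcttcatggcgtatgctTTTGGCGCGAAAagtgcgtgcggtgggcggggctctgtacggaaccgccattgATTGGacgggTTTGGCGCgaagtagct
Cdc6: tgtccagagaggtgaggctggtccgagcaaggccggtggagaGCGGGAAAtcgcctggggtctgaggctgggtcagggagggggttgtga
Pola1: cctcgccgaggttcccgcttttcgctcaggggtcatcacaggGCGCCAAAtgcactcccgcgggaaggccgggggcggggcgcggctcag
Rrm2: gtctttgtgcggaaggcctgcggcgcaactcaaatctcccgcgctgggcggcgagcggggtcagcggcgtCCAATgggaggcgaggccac
The Mcm5 stretch lies at chr8:75109319-75109408 on the plus strand and ends upstream of the start site. The Mcm6 stretch lies at chr1:128359736-128359835 on the minus strand, from -130 to -31 relative to the start site. Those of Cdc6 (chr11:98907971-98908060, plus) and Pola1 (chrX:93632246-93632335, minus) lie from -180 to -91, and that of Rrm2 (chr12:24708134-24708223, plus) from -120 to -31. The median log2 difference between numbers was -0.94 for the 12 members with an E2F match and -0.69 for the 24 without. A match is a description of letters and not a measured binding site.

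Of the helicase genes, 7 of 9 were called lower in the arrays numbered 1. Mcm2 to Mcm7 encode the ring that unwinds DNA, and all 6 were called. Mcm5 had log2 intensities of 10.27, 12.05 and 12.38 in tethered replicates 1, 2 and 3 and of 10.75, 12.22 and 12.37 in untethered replicates 1, 2 and 3, a difference of -1.75, SE 0.14, adjusted p = 0.00641. Both arrays numbered 1 lay at least 1.31 below the other 4, so that the groups necessarily overlapped. For Mcm6 the levels were 10.94, 12.31 and 12.52 in tethered and 11.28, 12.37 and 12.52 in untethered cells (difference -1.32, SE 0.11, adjusted p = 0.00731), and for Mcm4 they were 10.97, 12.22 and 12.51 in tethered and 11.22, 12.23 and 12.54 in untethered cells (-1.28, SE 0.13, adjusted p = 0.00897). Mcm7 stood at 11.90, 12.64 and 12.86 in tethered and 11.84, 12.93 and 12.94 in untethered cells, with a difference of -0.97, SE 0.098, adjusted p = 0.00881. On their brightest probe sets, Mcm3 differed by -0.63, SE 0.10, adjusted p = 0.0215 and Mcm2 by -0.57, SE 0.12, adjusted p = 0.0371, the smallest of the ring. The other probe sets of Mcm3 gave -1.44, -1.265, -1.50 and -0.11. The other factors of the active helicase are Cdc45 and the GINS complex. Gins1 was called as well, at 9.0, 9.92 and 10.01 in tethered and 9.25, 10.03 and 10.03 in untethered cells (-0.87, SE 0.077, adjusted p = 0.0078). Gins2 stood at 10.83, 11.13 and 11.27 in tethered and 10.83, 11.02 and 11.12 in untethered cells and did not pass (-0.30, SE 0.081, adjusted p = 0.0732), and neither did Cdc45 on its brightest probe set (0.03, SE 0.077, adjusted p = 0.835).

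Among the genes for origin recognition and licensing, 2 of 5 were called lower. Cdc6, the loading factor, had the second largest difference of all tested members, with levels of 7.68, 10.06 and 10.63 in tethered and 8.0, 9.76 and 10.44 in untethered cells and a difference of -2.38, SE 0.26, adjusted p = 0.00967. Its lowest level of the 4 other arrays was 1.77 above the higher of the arrays numbered 1. Orc6, a subunit of the origin recognition complex, differed by -0.99, SE 0.16, adjusted p = 0.0217. Orc2 (-0.23, SE 0.068, adjusted p = 0.097) and Orc1 (0.00, SE 0.12, adjusted p = 0.993) did not pass on their brightest probe sets. Cdt1, which loads the helicase with Cdc6, stood at 11.54, 11.66 and 11.86 in tethered and 11.77, 12.46 and 12.10 in untethered cells and did not pass (-0.37, SE 0.13, adjusted p = 0.153). Its arrays numbered 1 overlapped the others, as tethered replicate 2 lay below untethered replicate 1.

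Of the genes for origin firing, 0 of the 3 tested were called, and the fourth, Ccne2, was not tested. Ccne2 encodes cyclin E2, and its mean log2 intensity of 8.56 lay under the filter. Its levels were 6.87, 9.34 and 9.64 in tethered and 7.01, 9.01 and 9.47 in untethered cells, which gives a difference of -2.43, or 5.37-fold, with no test. Ccne1, cyclin E1, did not pass on its brightest probe set (-0.04, SE 0.10, adjusted p = 0.853). Dbf4, the regulatory subunit of the Cdc7 kinase, stood at 10.59, 10.87 and 11.14 in tethered and 10.24, 11.15 and 11.39 in untethered cells and narrowly missed the threshold (-0.72, SE 0.17, adjusted p = 0.0524). The kinase itself, Cdc7, stood at 9.95, 10.03 and 10.02 in tethered and 9.84, 9.82 and 10.03 in untethered cells (-0.08, SE 0.082, adjusted p = 0.601), and the numbers overlapped.

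**Figure D2:**
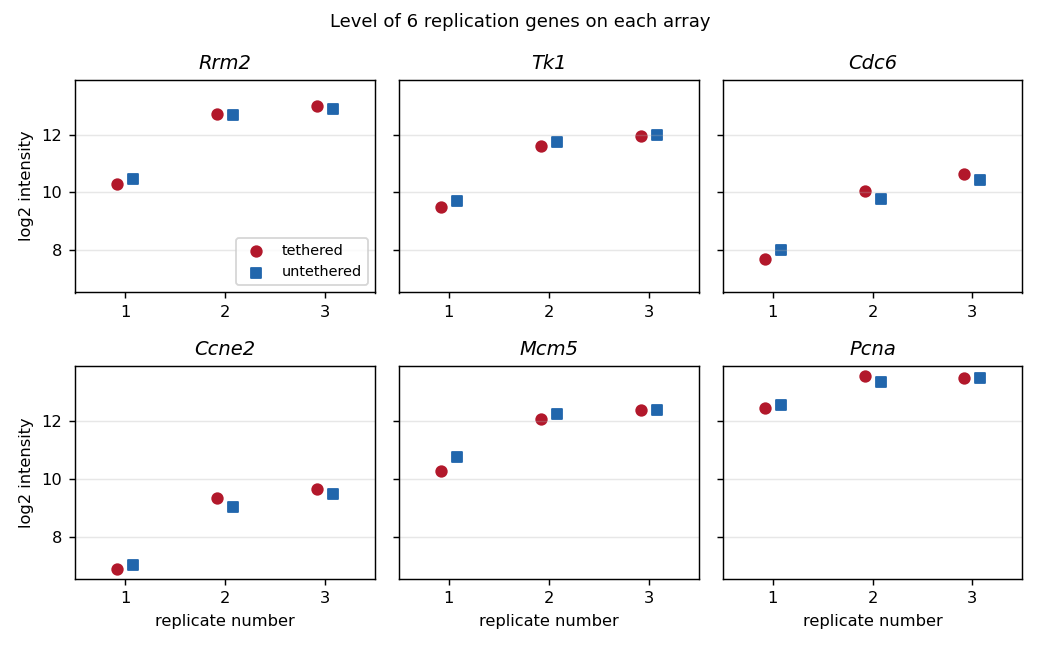
Log2 intensity (vertical axis) by replicate number (horizontal axis) of 6 replication genes, with circles for tethered and squares for untethered arrays, 1 point per array and no average. In each panel both arrays numbered 1 lie below the other 4, while the 2 groups lie close to each other at every number; Ccne2 was not tested.

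For the polymerases and primase, 7 of 8 were called lower, with a median difference of -0.76. Pola1, the catalytic subunit of the polymerase that starts each strand, stood at 9.17, 10.04 and 10.31 in tethered and 9.33, 10.32 and 10.43 in untethered cells (-1.03, SE 0.097, adjusted p = 0.00855). Prim1 and Prim2 encode the primase, and Prim1 had the largest difference of this role (-1.14, SE 0.18, adjusted p = 0.0203). The levels of Prim2 were 10.05, 10.59 and 10.90 in tethered and 10.08, 10.91 and 11.05 in untethered cells (-0.79, SE 0.11, adjusted p = 0.0154). Pole, the catalytic subunit of the leading-strand polymerase, stood at 9.31, 9.95 and 10.07 in tethered and 9.35, 10.18 and 10.17 in untethered cells (-0.77, SE 0.074, adjusted p = 0.00855). Its partner Pole2 stood at 10.16, 10.81 and 10.76 in tethered and 10.32, 10.72 and 10.74 in untethered cells (-0.52, SE 0.077, adjusted p = 0.0168). In all of these genes the arrays numbered 1 lay below the other 4. Pold2 (-0.75, SE 0.15, adjusted p = 0.038) and Pola2 (-0.49, SE 0.11, adjusted p = 0.044) were called too. Pold1, the catalytic subunit of polymerase delta, did not pass (-0.17, SE 0.069, adjusted p = 0.196).

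The sliding clamp Pcna and 4 of the 5 subunits of its loader were called lower. Pcna was the brightest member, with levels of 12.43, 13.56 and 13.49 in tethered and 12.53, 13.34 and 13.48 in untethered cells and a difference of -0.99, SE 0.085, adjusted p = 0.0078. Rfc5 stood at 10.06, 11.36 and 11.66 in tethered and 10.26, 11.34 and 11.56 in untethered cells and had the largest difference of the loader (-1.32, SE 0.12, adjusted p = 0.00855). Rfc2 stood at 10.57, 11.15 and 11.43 in tethered and 10.81, 11.41 and 11.38 in untethered cells (-0.65, SE 0.099, adjusted p = 0.0182). Rfc4 stood at 9.83, 10.26 and 10.44 in tethered and 9.83, 10.49 and 10.59 in untethered cells (-0.61, SE 0.091, adjusted p = 0.0167). In these 4 genes both arrays numbered 1 lay below the other 4. Rfc3 gave -0.90, SE 0.18, adjusted p = 0.034. Rfc1, the large subunit, did not pass (-0.19, SE 0.072, adjusted p = 0.172).

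Single-strand binding and the joining of lagging-strand fragments were represented by 5 genes, 4 of them called lower. Lig1, the ligase that seals the fragments, stood at 10.12, 11.10 and 11.52 in tethered and 10.31, 11.54 and 11.54 in untethered cells (-1.21, SE 0.12, adjusted p = 0.00883). Rpa1, the large subunit of replication protein A, stood at 12.02, 12.38 and 12.75 in tethered and 11.85, 12.90 and 12.87 in untethered cells (-0.79, SE 0.15, adjusted p = 0.0324). Both genes were lower in both arrays numbered 1 than in any other array. Rpa3 (-0.45, SE 0.093, adjusted p = 0.0387) and Fen1, the flap nuclease (-0.36, SE 0.067, adjusted p = 0.0312), were called with smaller differences, and Rpa2 was not (-0.65, SE 0.15, adjusted p = 0.0539).

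The enzymes of nucleotide supply had the largest differences of any role, with a median of -1.75 over the 4 tested and 3 called. Rrm2 had levels of 10.28, 12.71 and 12.99 in tethered and 10.47, 12.68 and 12.88 in untethered cells and a difference of -2.44, SE 0.12, adjusted p = 0.00395. The arrays numbered 1 were at least 2.2 below every other array. Tk1 stood at 9.51, 11.60 and 11.95 in tethered and 9.70, 11.74 and 11.98 in untethered cells (-2.22, SE 0.12, adjusted p = 0.00395) and Dut, which keeps uracil out of DNA by removing dUTP, at 10.70, 11.70 and 11.90 in tethered and 10.70, 11.87 and 11.83 in untethered cells (-1.13, SE 0.082, adjusted p = 0.00605). Rrm1, the large subunit of ribonucleotide reductase, differed by -1.29, SE 0.31, adjusted p = 0.0578 on its brightest probe set and did not pass. Its levels there were 10.91, 12.29 and 12.65 in tethered and 11.04, 11.53 and 12.62 in untethered cells, and untethered replicate 2 lay well below the other arrays numbered 2 and 3. On its second brightest probe set it was called lower (-1.45, SE 0.14, adjusted p = 0.00874). Untethered replicate 2 stood at 11.94 there, against 11.64, 12.07 and 12.17 in the other arrays numbered 2 and 3. Tyms, thymidylate synthase, was not tested, since its brightest probe set had a mean log2 intensity of 7.79. Its difference of -0.40 has no test.

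The last 2 genes were both called lower. Tipin, which stabilises paused forks with Timeless, stood at 10.14, 11.03 and 11.24 in tethered and 10.18, 11.01 and 11.16 in untethered cells (-0.95, SE 0.091, adjusted p = 0.00855). Slbp, the protein that binds the stem-loop of histone mRNAs in S phase, stood at 10.25, 11.26 and 11.59 in tethered and 10.59, 11.36 and 11.53 in untethered cells (-1.01, SE 0.13, adjusted p = 0.0125). Over all roles, 39 of the 44 members, and 37 of the 42 tested, had both arrays numbered 1 below the other 4, as had 25.0% of all genes tested. A difference of at least 2-fold was reached by 13 of the 42, against 1.65% of all genes tested, and of at least 4-fold by 3, against 0.127%. Ranked from the lowest difference upwards among 11846 genes, Rrm2 was number 4, Cdc6 number 5 and Tk1 number 8.

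The choice of probe set mattered for several members. The 44 genes had 95 probe sets, 76 of them tested, of which 55 were called lower and 0 higher, against 8.27% and 1.59% of all probe sets. On some tested probe set, 39 of the 42 genes were called lower, against 11.0% of all genes tested. The 9 genes called only on a probe set dimmer than the brightest were Cdc45, Gins2, Orc1, Orc2, Ccne1, Pold1, Rfc1, Rpa2 and Rrm1. Cdc45 gave 0.03 on its brightest and -1.12 on its other probe set, Ccne1 -0.04 and -0.95, Orc1 0.00 and -0.65, and Rpa2 -0.65 and -1.31. In Fen1 the brightest gave -0.36 and the other -1.85. In Dut the order was the opposite, with -1.13 on the brightest and 0.01 on the other. The 3 probe sets of Rrm2 gave -2.44, -2.29 and -2.50. The second probe set of Cdc7, below the filter, gave -1.09 with no test. Probe sets of 1 gene read different parts of its transcripts, and which of them measured the gene was not tested.

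The difference between numbers was present in both groups. For 41 of the 44 members, replicate 1 lay below the mean of replicates 2 and 3 in tethered and in untethered cells. The median difference over the 42 tested was -0.71 in tethered and -0.85 in untethered cells. Across the 44 genes the 2 sets of differences, which come from different arrays, had a Pearson correlation of 0.93, and 0.72 across all genes tested, as a description in which genes are not independent replicates. The interaction of group and number, which tests whether the difference was the same in both groups, was called for 0 of 42 members, with a smallest adjusted p of 0.939 (limma), and for 0 of 22518 probe sets. At an unadjusted p under 0.05 there was 1 member, Orc1, against 5.28% of all probe sets. This test rests on 1 array numbered 1 in each group. Dbf4 had the next smallest p, with differences of -0.41 in tethered and -1.03 in untethered cells.

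**Figure D3:**
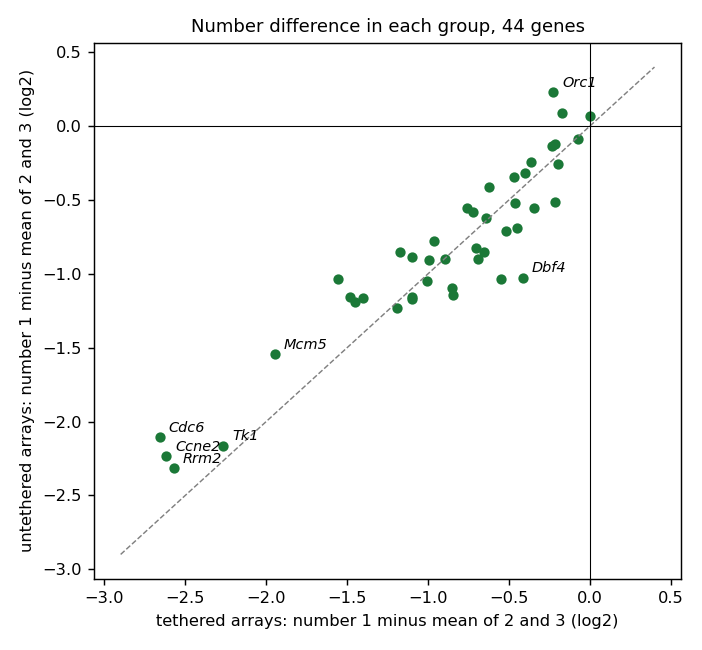
Log2 difference between replicate 1 and the mean of replicates 2 and 3 for the 44 replication genes, in tethered arrays (horizontal axis) and untethered arrays (vertical axis); the dashed line marks equal values. Most genes lie below 0 on both axes, and Cdc6, Ccne2, Rrm2 and Tk1 lie beyond -2 on both.

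A list of 49 further replication and S phase genes, of which 43 were tested, shows the same comparison beyond the 44. In it, 26 were called lower in the arrays numbered 1 and 0 higher, with a median of -0.51. Uhrf1, which guides maintenance DNA methylation to new DNA, gave -2.07 (SE 0.15, adjusted p = 0.00605). Its enzyme partner Dnmt1 gave -1.21 (SE 0.12, adjusted p = 0.00881), and Asf1b, a histone chaperone at forks, -1.39 (SE 0.14, adjusted p = 0.00881). Clspn, the fork checkpoint adaptor claspin, stood at -0.96 (SE 0.075, adjusted p = 0.00641). Orc3 (0.12) and Rrm2b (0.14), the p53-inducible ribonucleotide reductase subunit, were the only tested genes of that list above 0, and neither passed. In a list of 30 mitosis genes, 25 of 29 tested were called lower and 0 higher, with a median of -1.31. Mki67, the proliferation marker Ki-67, gave -1.60 (SE 0.099, adjusted p = 0.00395) and Birc5, survivin, -1.78 (SE 0.16, adjusted p = 0.00823). Among fibroblast markers the median was -0.32, with 4 of 14 called lower and 0 higher. For all genes tested the median was -0.03, with 8.72% called lower and 1.41% higher. Whether one list moved more than another was not tested.

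**Figure D4:**
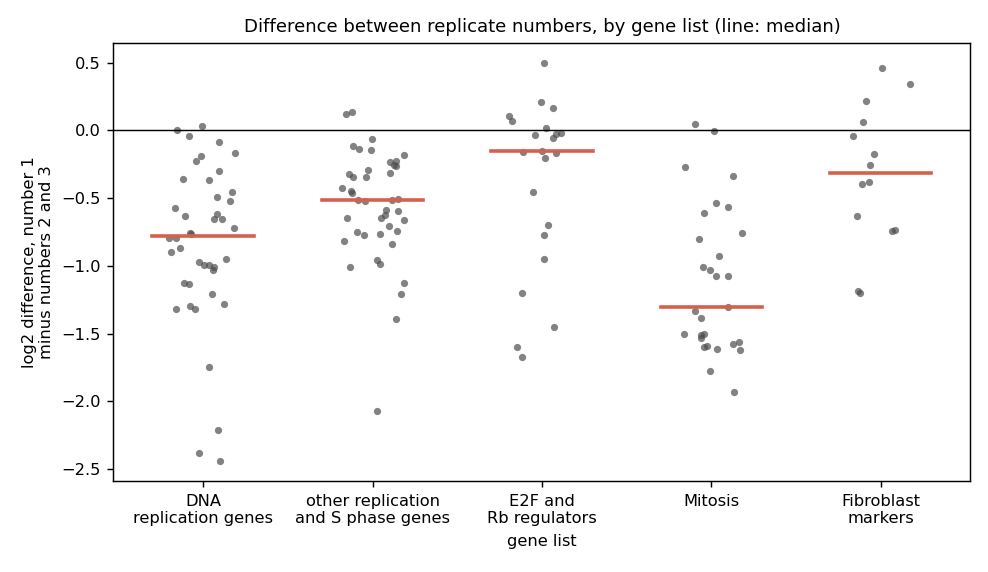
Log2 difference between the arrays numbered 1 and those numbered 2 and 3 (vertical axis) for each tested gene (points) of 5 lists, with the median as a line. The medians are -0.78 for the DNA replication genes, -0.51 for other replication and S phase genes, -0.155 for E2F and Rb regulators, -1.31 for mitosis genes and -0.32 for fibroblast markers.

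Between tethered and untethered cells, 0 of 42 replication genes passed the adjusted threshold or an unadjusted p of 0.05 (limma, 6 arrays), against 0% and 2.38% of all probe sets and, for the unadjusted p, 2.44% of genes. The unmoderated linear model called 0 as well. The groups overlapped for all 44 members, while they did not overlap for 8.40% of all genes tested. For 39 of the 44, both arrays numbered 1, 1 from each group, lay below all others. In such genes the groups must overlap whatever the effect of tethering, so this count says nothing about tethering there. Of the 44 values, 28 were below 0, against 6963 of 11846 over all genes tested. All but 1 of the 44 lay within 0.25 of 0. That one was Cdt1, whose mean was 11.69 ± 0.16 (SD, n = 3) where the insertion was tethered and 12.11 ± 0.35 (SD, n = 3) where it was not. Its log2 difference was -0.42 (SE 0.19, limma adjusted p = 0.999, 95% interval -0.88 to 0.04), and the other 2 probe sets gave -0.25 and -0.07. At numbers 1, 2 and 3 the difference of Cdt1 was -0.22, -0.80 and -0.24. With the number as a replicate block, its 95% interval was -0.77 to -0.07 (limma adjusted p = 0.740). The highest value was that of Rrm1, 0.22 (SE 0.58), with -0.16 on its second brightest probe set.

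The spread between numbers made these intervals wide. The mean of Rrm2 was 11.99 ± 1.49 (SD, n = 3) with tethering and 12.01 ± 1.34 (SD, n = 3) without, a difference of -0.01 (95% interval -2.32 to 2.29). For Mcm5 the difference was -0.21 (-1.88 to 1.46) and for Pcna 0.04 (-0.90 to 0.99). The median half-width over the 42 members was 0.79, so smaller differences were not resolved by this fit, which held no term for the number. The interval lay wholly within 1 log2 unit of 0, a 2-fold difference, for 27 of the 42. With the number added to the fit as a replicate block, the median half-width was 0.21, and 42 of 42 intervals lay within that range. At single numbers, the median of the members, tethered minus untethered, was -0.05 at number 1, -0.06 at number 2 and 0.01 at number 3, with 30, 26 and 19 of 42 values below 0. Over all genes tested, the medians were 0.006, -0.060 and -0.004, with 5718, 7254 and 6105 of 11846 values below 0. Without both arrays numbered 1, 0 of 43 tested members were called, 2 had an unadjusted p under 0.05, against 6.60% of all probe sets, and the median was -0.02, with values from -0.52 (Cdt1) to 0.40 (Rrm1). The median half-width then was 0.33. Leaving out a single array moved the median of the members from -0.38 (without untethered replicate 1) to 0.18 (without tethered replicate 1). Either removal leaves a number 1 array in 1 group only.

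**Figure D5:**
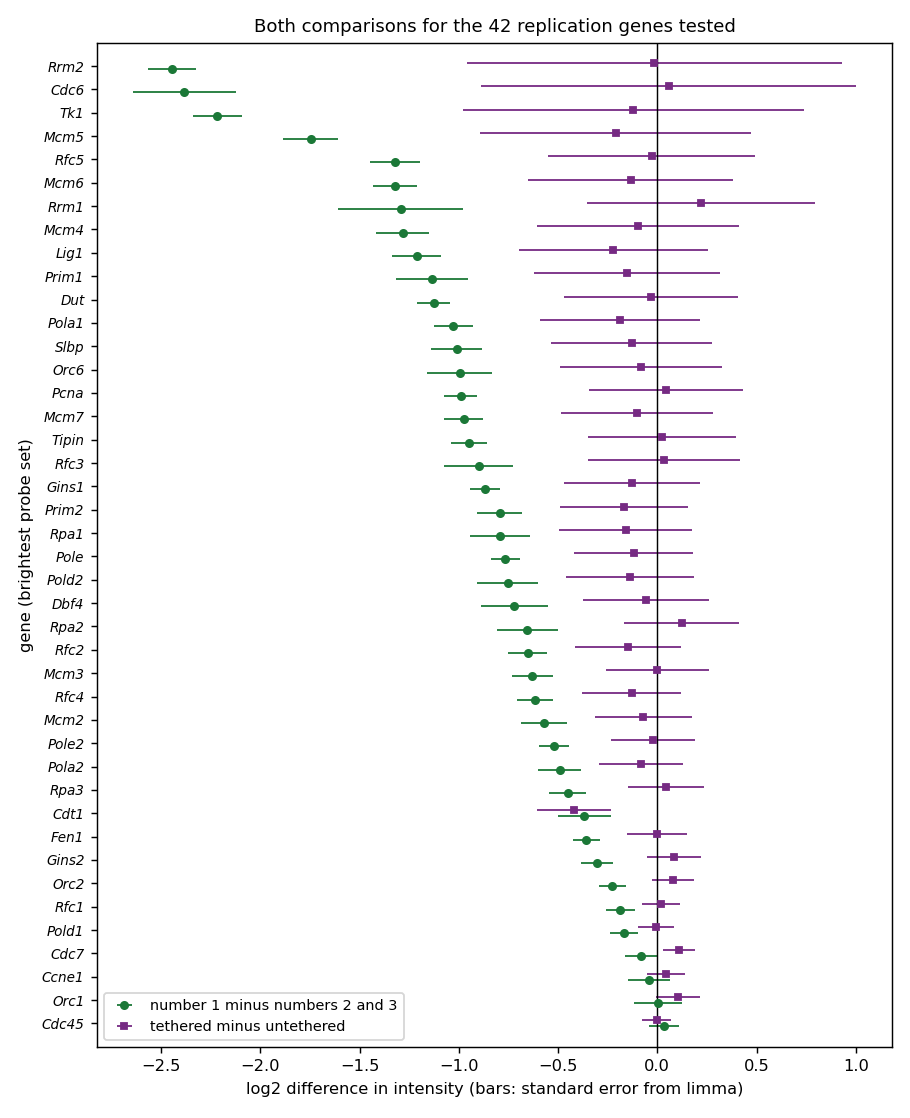
Log2 difference (horizontal axis) of the 42 replication genes tested, for number 1 minus numbers 2 and 3 (circles) and tethered minus untethered (squares), with standard errors from limma as bars. The circles spread from -2.44 to 0.03, while the squares lie between -0.42 and 0.22.

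The count of members called between numbers depended on single arrays, while the direction did not. It was 0 without tethered replicate 1 (32 of 42 members at an unadjusted p under 0.05, against 16.9% of all genes tested). It was 17 without untethered replicate 1, against 3.72% of all genes called in either direction, 17 without tethered replicate 3, against 2.51%, and 20 without untethered replicate 3, against 4.10%. Without a replicate 2 it was 31 (tethered, against 10.3%) or 30 (untethered, against 12%). The median difference stayed between -0.87 and -0.71 in each of these. Without tethered replicate 1, nearly all calls over all genes tested were lost as well. Where an array numbered 1 is left out, the remaining one is assumed to vary like the others.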

How the data were processed

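Biotin-labelled total RNA of 6 samples was hybridised to Affymetrix arrays, per the labels. The deposited table gives a linear intensity for every probe set on each array, as summarised by the authors. Software and scaling: not given in the sources used here. Of 45101 probe sets, 64 controls were left out of the tests, and 34945 had 1 symbol in the platform annotation, 932 several and 9160 none. Symbols were updated through the gene identifier (99.4% matched in RefSeq, GRCm38.p6).

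Values were floored at 16 before taking log2. Probe sets with a mean above the median of all (log2 8.93) were tested, 22518 in all, with limma 3.58.1 in R 4.3.3, two-sided, and called at a Benjamini-Hochberg adjusted p under 0.05. Tethered was compared with untethered with no covariate, number 1 with numbers 2 and 3 with the group as covariate, and their interaction was fitted. The procedure was tested on simulated data with independent noise. For tethering, the simulated arrays held no difference between numbers, unlike the real ones. The number of arrays limits the precision. By rule, the member of smallest p in each comparison and role, plus up to 20 called members, were given with values on every array; others are named by their differences, and probe set and list examples were chosen after their values were seen. Members, lists and tests were chosen with earlier results of these data known. Alternatives concerned scaling, floor, filter, probe set choice, moderation, covariates and each array.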

Additional observations from a re-analysis of the deposited data

Results flagged for a closer look

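In the 4 arrays numbered 2 and 3, 1 array stood apart from the other three for 4 of 44 members, with a gap divided by the range above Dixon's 95% critical value; chance gives this in about 1 in 20 such sets. For Mcm2 the ratio was 0.914, with tethered replicate 2 at 11.55 and the others between 11.86 and 11.88. For Lig1 it was 0.944, with tethered replicate 2 at 11.10 and the others between 11.52 and 11.54. For Ccne1 it was 0.887, with tethered replicate 2 at 12.57 and the others between 12.30 and 12.33. For Cdc7 it was 0.971, with untethered replicate 2 at 9.82 and the others between 10.02 and 10.03.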

How the results depend on the processing

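The count of members called between numbers was 30 and became 0 with an unmoderated linear model, where 36 of 42 members, against 21.5% of all genes tested, had an unadjusted p under 0.05; with 1 array left out it ran from 0 to 31. The unmoderated model called 0% of all genes tested. Under the other alternatives the count of members called lay between 24 of 44 (no filter) and 34 of 39 (mean of a gene's probe sets). Of all genes tested, 4.04% and 10.1% were called in either direction under these 2 settings. The median difference stayed between -0.87 and -0.71 throughout. Over all probe sets, 16.1% of the calls between numbers were higher in the arrays numbered 1, and 36.0% after quantile normalization. After that normalization 31 members were called, all lower, against 11.5% of all genes tested called in either direction. Between tethered and untethered cells 0 members were called under each of the 15 alternatives, and for the interaction 0 under each of its 7. Over all genes tested, 0% were called between tethered and untethered cells under each of the 15 alternatives too. With 1 array left out, the median difference of the members between these groups ran from -0.38 to 0.18. Samples with the same number deviated together for numbers 1 and 3 (correlations 0.71 and 0.71) but not for number 2 (0.075), and tethered replicate 2 correlated best with untethered replicate 3, so the numbers were not taken to pair the samples. With the number as a replicate block, 0 members were called, and 2 of 42 had an unadjusted p under 0.05, against 4.72% of all genes tested. These were Cdt1 (-0.42, 95% interval -0.77 to -0.07) and Pola1 (-0.19, 95% interval -0.37 to -0.01). In that fit the median was -0.05, and the median half-width of the 95% interval was 0.21, with 42 of 42 intervals within 1 log2 unit of 0. The smallest adjusted p over all probe sets was 0.740. Signal over background could not be judged, since no detection calls were used here.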

Other observations

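A list of 25 genes of the E2F and retinoblastoma pathway was mixed. Of 22 tested, 8 were called lower in the arrays numbered 1 and 1 higher, with a median difference of -0.155. Over all genes tested, 8.72% were called lower and 1.41% higher, with a median of -0.03. Ccnd1, cyclin D1, which starts the inactivation of the retinoblastoma protein, had log2 intensities of 11.10, 12.84 and 12.82 in tethered and 11.22, 12.77 and 12.61 in untethered replicates 1, 2 and 3 (difference -1.60, SE 0.090, adjusted p = 0.00395). Ccna2, cyclin A2 of S and G2 phase, gave -1.67 (SE 0.23, adjusted p = 0.0146), E2f7, a repressor of the E2F family, -1.45 (SE 0.17, adjusted p = 0.0103) and Rbl1, the retinoblastoma relative p107, -0.95 (SE 0.078, adjusted p = 0.00705). The 1 gene called higher was Cdkn1b, the cyclin-dependent kinase inhibitor p27, at 10.36, 9.67 and 9.69 in tethered and 10.40, 10.14 and 10.03 in untethered replicates 1, 2 and 3 (0.50, SE 0.10, adjusted p = 0.0379). Another inhibitor of these kinases, Cdkn2c, went the other way and was called lower (-1.20, SE 0.17, adjusted p = 0.0146). The remaining genes called lower were Ccnd3 (-0.77), Tfdp1 (-0.69) and E2f8 (-0.45). E2f1 (-0.16), E2f3 (-0.16), Cdk4 (-0.02) and Cdkn1a (0.11) did not pass. The genes of this paragraph were named after their values were seen.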
